A study of Mus musculus with 6 samples.

Results

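The enzymes described here are 10 genes of serine synthesis and of the folate one-carbon cycle, of 19937 genes measured in newborn mouse olfactory epithelium in which Atf5 was intact or knocked out. They were chosen by name, from rows with exactly 1 gene symbol in the array's annotation, taking for each gene the probe set with the highest mean over all 6 arrays. That mean was the only measured value in the choice, and it decided nothing, since each of the 10 genes had 1 such probe set. The list was drawn up with the results for Mthfd2 and Shmt2 in these data already known.

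Cells make serine from a glycolytic intermediate in the cytosol. Serine hydroxymethyltransferases then pass a carbon from serine to tetrahydrofolate, and that carbon is used to build purines and thymidylate and to remethylate homocysteine. The folate enzymes exist as parallel sets in the cytosol and in mitochondria, and in many dividing cells the mitochondrial set oxidises the serine carbon and exports it to the cytosol as formate. Genes of both the serine pathway and the mitochondrial folate set are known targets of the transcription factor ATF4, a relative of ATF5.

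RNA came from septa and turbinates of the nose, dissected on postnatal day 0 from pups of the C57BL6 strain. The knockout group was Atf5-/- and the control group Atf5+/+, with 3 samples each, every sample being a pool of 3 pups hybridised to 1 whole-transcript array. The pups came from crosses of Atf5+/- parents, and the pooled pups of a sample came from different litters. The deleted part of Atf5 is not named in the labels, and the Atf5 probe set may lie inside or outside it.

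The arrays had medians of 8.67 to 8.72 on the log2 scale. Atf5 was at 9.43, 9.44 and 9.50 in the knockout arrays and at 10.54, 10.96 and 10.63 in the wild-type arrays, a log2 change of -1.25 (SE 0.10, adjusted p = 0.000499). The tissue label was borne out by Omp, the marker of mature olfactory neurons, and by Cyp2g1, a cytochrome of sustentacular cells, which averaged 11.3 and 13.6 in the wild type. All 8 measured mature neuron markers fell in the knockout, with a median log2 change of -1.78. Of immature neuron markers 3 of 6 fell (4 with the replicate number as a block), and 3 of 15 measured markers of dividing cells rose (12 with the block). Among all 19937 genes 3.24% were lower and 0.502% higher, and with the block 889 were lower and 421 higher. The marker lists were chosen with earlier results of these data known, so these counts are not independent evidence. In pooled tissue, fewer cells of a type and less RNA per cell cannot be told apart. Arrays also differed in neighbouring tissue. The mean of 3 enamel genes ran from 7.98 to 9.02 over the knockout arrays and was 11.61, 11.35 and 9.41 over the wild-type arrays, and the mean of 5 skeletal muscle genes was 9.11 in wild-type replicate 1 and 10.32 to 10.67 in the other arrays.

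The comparison of knockout with wild type asked which transcripts differ when Atf5 is missing. Of the 10 enzymes 3 rose in the knockout, none fell and 7 did not pass the test (limma, adjusted p under 0.05 over all genes). The 3 were Mthfd2 and Shmt2 of the mitochondrial folate set and Psat1 of serine synthesis, by factors of 1.46, 1.46 and 1.26. Among all genes 0.502% were called higher and 3.24% lower, and since the calls of Mthfd2 and Shmt2 were known when the list was drawn up, the share of 3 in 10 is not independent evidence. The change was above 0 for 9 of the 10 enzymes, against 53.0% of all genes, and the median change was 0.19, against 0.01 for all genes. Both values rest on the same list and are not independent evidence either.

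**Figure D1:**
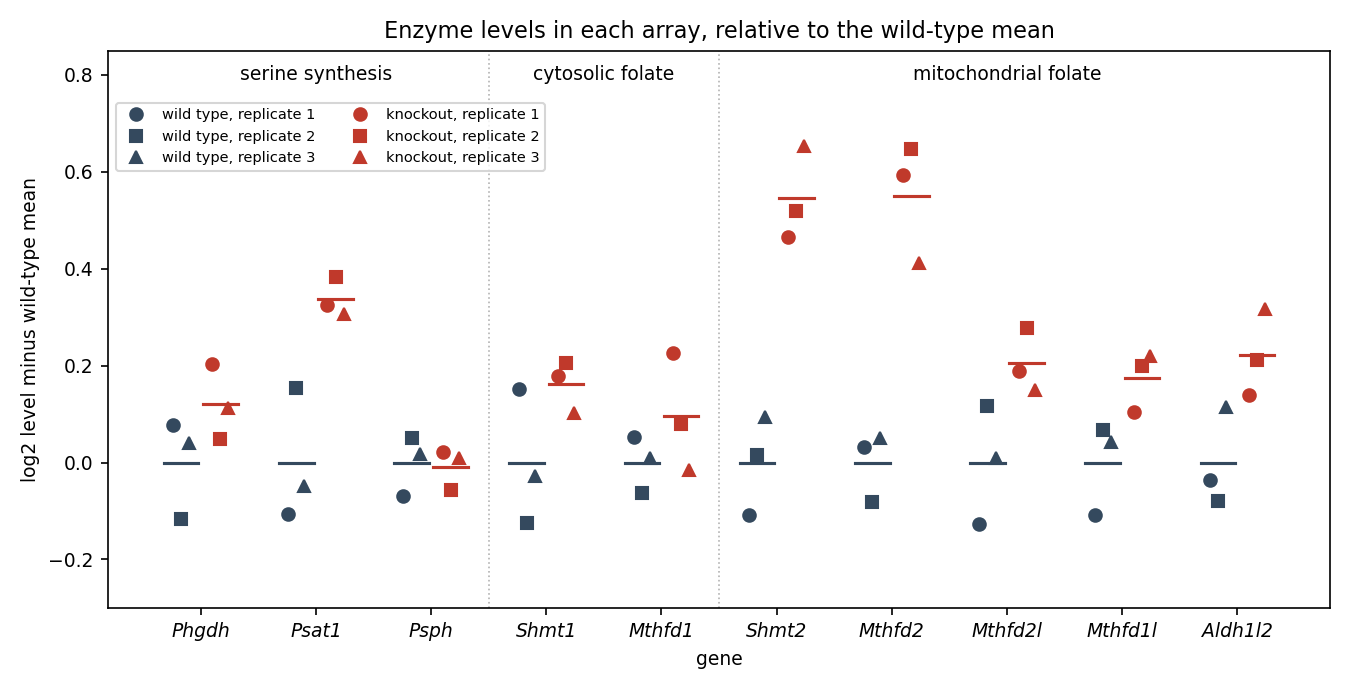
Level of each enzyme in each of the 6 arrays on the log2 scale, minus that gene's wild-type mean. Points are arrays, with a shape for each replicate number, and short lines are group means. All 5 mitochondrial enzymes and Psat1 have their 3 knockout arrays above their 3 wild-type arrays, while Phgdh, Psph, Shmt1 and Mthfd1 overlap.

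Among the mitochondrial folate enzymes, Shmt2 and Mthfd2 rose and Mthfd2l, Mthfd1l and Aldh1l2 did not pass the test. All 5 had every knockout array above every wild-type array, an arrangement that 10.8% of all genes showed. Shmt2 is the mitochondrial serine hydroxymethyltransferase, which takes the carbon from serine and leaves glycine. It was at 9.76, 9.81 and 9.94 in knockout replicates 1, 2 and 3 and at 9.18, 9.31 and 9.38 in wild-type replicates 1, 2 and 3. The lowest knockout array was above the highest wild-type array, and wild-type replicate 1 was the lowest of all. The means were 9.84 ± 0.096 (SD, n = 3) and 9.29 ± 0.10 (SD, n = 3), a change of 0.55 (SE 0.077, adjusted p = 0.00507), or 1.46-fold (95% interval 1.29 to 1.65).

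Mthfd2, the mitochondrial methylene-tetrahydrofolate dehydrogenase and cyclohydrolase that is abundant in embryonic and dividing cells, changed by the same amount. It was at 9.71, 9.77 and 9.53 in knockout replicates 1, 2 and 3 and at 9.15, 9.04 and 9.17 in the wild type. Here knockout replicate 3 was the lowest knockout array, whereas it was the highest for Shmt2, and the groups were again apart. The change was 0.55 (SE 0.078, adjusted p = 0.00515), or 1.46-fold (1.30 to 1.65), from a wild-type mean of 9.12 ± 0.071 (SD, n = 3) to 9.67 ± 0.12 (SD, n = 3). By the size of the increase Mthfd2 stood 23rd and Shmt2 25th among all 19937 genes. Both calls were kept without any 1 array, with a highest adjusted p of 0.0276 for Mthfd2 and 0.0219 for Shmt2.

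The paralog Mthfd2l, which carries the same enzyme activities in mitochondria, was at 9.33, 9.42 and 9.29 in the knockout and at 9.01, 9.26 and 9.15 in the wild type. The gap between the groups was narrow, from 9.26 to 9.29, and the change of 0.21 (SE 0.076, adjusted p = 0.225) did not pass. Mthfd1l, the mitochondrial formyl-tetrahydrofolate synthetase that releases formate, was at 9.55, 9.65 and 9.67 against 9.34, 9.52 and 9.49, a change of 0.17 (SE 0.070, adjusted p = 0.263). Aldh1l2, the mitochondrial formyl-tetrahydrofolate dehydrogenase, which burns the carbon to carbon dioxide, was at 8.29, 8.37 and 8.47 against 8.12, 8.08 and 8.27. Its change was 0.22 (SE 0.076, adjusted p = 0.179), and knockout replicate 1 lay barely above wild-type replicate 3. The 95% intervals of the fold were 1.02 to 1.30 for Mthfd2l, 1.01 to 1.26 for Mthfd1l and 1.04 to 1.31 for Aldh1l2, and a difference between these genes and Shmt2 or Mthfd2 was not tested.

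In the cytosolic folate set neither of the listed members, Shmt1 and Mthfd1, passed. Shmt1, the cytosolic serine hydroxymethyltransferase, was at 9.36, 9.39 and 9.28 in the knockout and at 9.33, 9.06 and 9.16 in the wild type. Wild-type replicate 1 lay within the knockout range, and the change was 0.16 (SE 0.079, adjusted p = 0.366), with a 95% interval of -0.02 to 0.34. Mthfd1, which combines the dehydrogenase, cyclohydrolase and synthetase activities in the cytosol, was at 9.50, 9.36 and 9.26 against 9.33, 9.22 and 9.29. Its lowest array in the knockout was below its highest arrays in the wild type, with a change of 0.10 (SE 0.075, adjusted p = 0.603), and an interval of -0.07 to 0.27. Both upper bounds were below the lower bounds for Shmt2 (0.37) and Mthfd2 (0.38) on the same log2 scale. A difference between these genes was not tested, and the rise of Shmt2 and Mthfd2 was known when the list was drawn up.

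**Figure D2:**
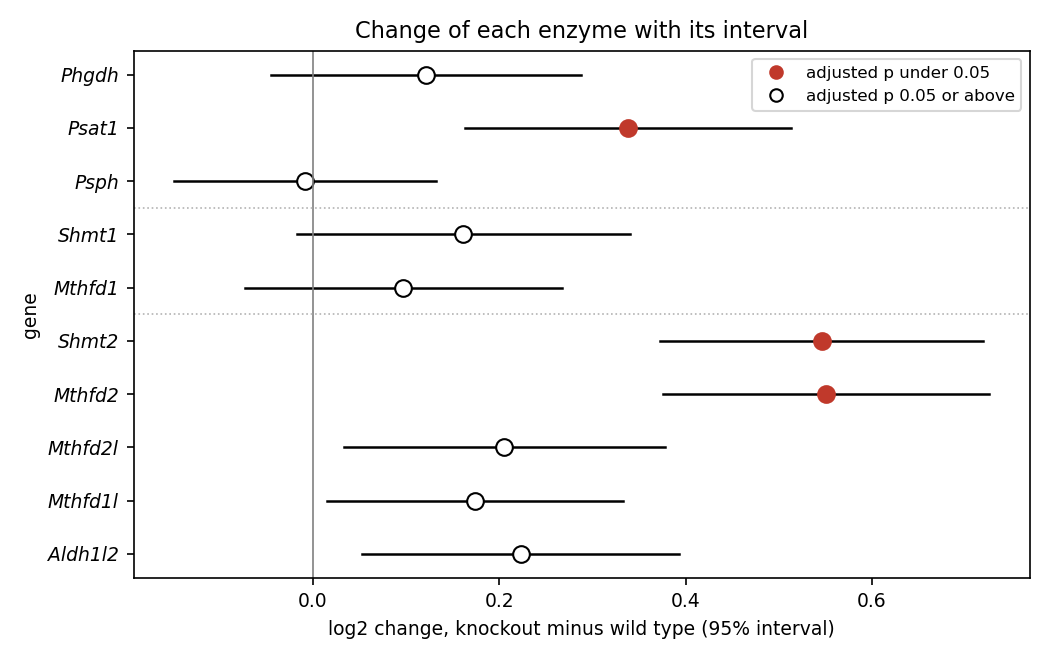
Log2 change of each enzyme, knockout minus wild type, with its 95% interval from limma (n = 3 arrays per genotype), grouped from top to bottom as serine synthesis, cytosolic folate and mitochondrial folate. Filled points mark Psat1, Shmt2 and Mthfd2, which passed at an adjusted p under 0.05, and the interval of Psph is centred near 0.

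The mitochondrial and cytosolic sets were set against each other within each array, after taking each gene's wild-type mean as 0. The mean over the 5 mitochondrial enzymes was 0.30, 0.37 and 0.35 in knockout replicates 1, 2 and 3 and -0.07, 0.01 and 0.06 in the wild type. The mean over Shmt1 and Mthfd1 was 0.20, 0.14 and 0.04 in the knockout against 0.10, -0.09 and -0.01 in the wild type. The knockout arrays thus stood apart from the wild type for the mitochondrial mean and overlapped them for the cytosolic mean. The mitochondrial mean includes Shmt2 and Mthfd2, whose rise was known when the list was drawn up, each with a change of 0.55. Mthfd2l, Mthfd1l and Aldh1l2 changed by 0.21, 0.17 and 0.22, next to 0.16 for Shmt1 and 0.10 for Mthfd1. Aldh1l2 is in the mitochondrial mean, but its cytosolic counterpart Aldh1l1 (change 0.01) was listed with the related genes and is not in the cytosolic mean. The difference between the sets was 0.10, 0.23 and 0.31 in the knockout against -0.17, 0.10 and 0.07 in the wild type, with means of 0.21 ± 0.11 (SD, n = 3) and 0.00 ± 0.15 (SD, n = 3). These groups overlapped, because wild-type replicate 2 was above knockout replicate 1, although within each replicate number the knockout array was the higher one. Without wild-type replicate 1 the difference between genotypes was 0.12 instead of 0.21. No test was made on this difference, which is a score over chosen genes.

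The same was computed for the pairs Shmt2 with Shmt1 and Mthfd2 with Mthfd1. Mthfd2l and Mthfd1l also share activities with Mthfd1 and were not set against it in this way. They changed by 0.21 and 0.17, next to 0.10 for Mthfd1, so the pairs shown do not stand for all matching pairs. Shmt2 minus Shmt1 was 0.29, 0.31 and 0.55 in the knockout against -0.26, 0.14 and 0.12 in the wild type. Mthfd2 minus Mthfd1 was 0.37, 0.57 and 0.43 in the knockout against -0.02, -0.02 and 0.04 in the wild type. In both pairs every knockout array was above every wild-type array, with the wider gap for Mthfd2. Each pair holds a gene whose rise was known when the list was drawn up, so this separation is not independent evidence and was not tested.

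**Figure D3:**
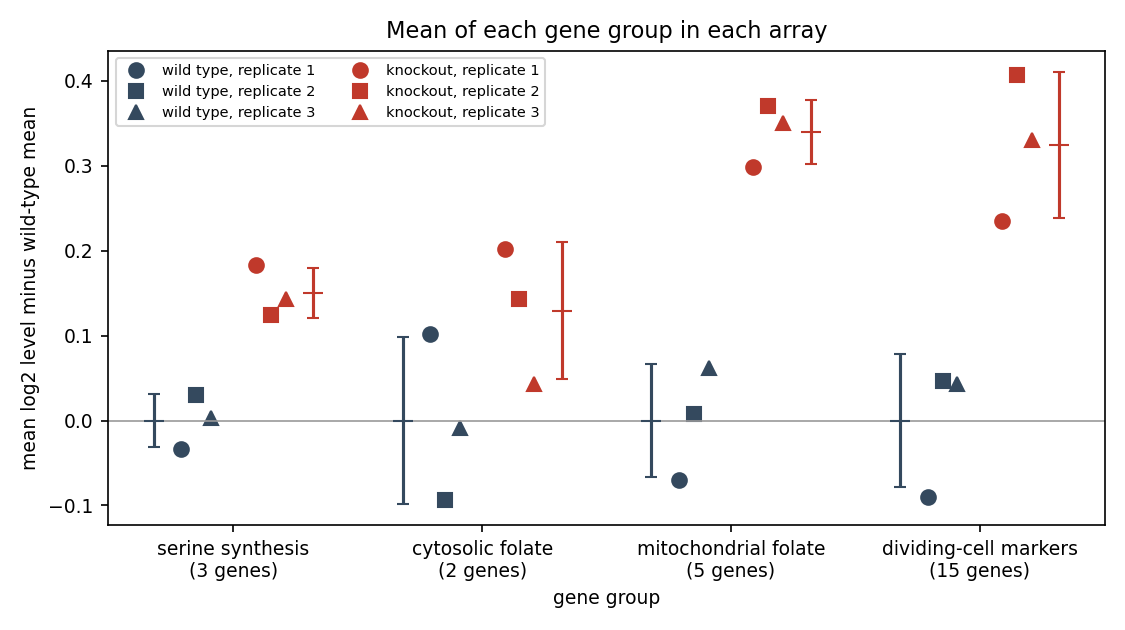
Mean log2 level of 4 gene groups in each array, minus the wild-type mean of each gene. Points are arrays, with a shape for each replicate number, and bars are the mean ± SD of 3 arrays. The mitochondrial folate mean and the dividing-cell marker mean are higher in all 3 knockout arrays than in any wild-type array, and the cytosolic folate mean overlaps between genotypes.

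Of the enzymes that make serine, Psat1 rose and Phgdh and Psph did not pass. Phgdh, which catalyses the committed step from the glycolytic intermediate, was at 9.42, 9.26 and 9.33 in the knockout and at 9.29, 9.10 and 9.25 in the wild type, a change of 0.12 (SE 0.074, adjusted p = 0.479). Its groups overlapped. A further probe set, shared by Phgdh and Gm6756 in the annotation and left out of the test for that reason, was at 9.99, 9.87 and 9.84 in the knockout and at 9.75, 9.65 and 9.72 in the wild type, where the groups did not overlap. Its signal cannot be divided between both genes.

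Psat1, the aminotransferase of the next step, was at 10.45, 10.51 and 10.43 in the knockout and at 10.02, 10.28 and 10.08 in the wild type. The knockout arrays lay close together (10.47 ± 0.040, SD, n = 3) and the wild-type arrays were wider (10.13 ± 0.14, SD, n = 3), with replicate 2 nearest to the knockout. The change was 0.34 (SE 0.077, adjusted p = 0.0476), or 1.26-fold (1.12 to 1.43). The call was close to the threshold. It ended without any 1 array other than wild-type replicate 2 (highest adjusted p = 0.189), after quantile normalization (0.0654) and with dim genes left out (0.0549). In the last pair of settings 2 of the 10 enzymes were called higher, against 0.477% and 0.53% of all genes. A fit that took replicate numbers as a block called the same 3 enzymes, against 2.11% of all genes, with an adjusted p of 0.0183 for Psat1. Psph, the phosphatase of the last step, was at 9.20, 9.12 and 9.19 in the knockout and at 9.11, 9.23 and 9.20 in the wild type. The groups were intermixed, and the change was -0.01 (SE 0.062, adjusted p = 0.970), with an interval of 0.902 to 1.10 for the fold.

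The arrays of 1 genotype did not rank alike across the enzymes. Wild-type replicate 1 was the lowest wild-type array for Psat1, Psph, Shmt2, Mthfd2l and Mthfd1l, and the highest for Phgdh, Shmt1 and Mthfd1. Knockout replicate 3 was the highest knockout array for Shmt2, Mthfd1l and Aldh1l2 and the lowest for Psat1, Shmt1, Mthfd1, Mthfd2 and Mthfd2l. The SD within a genotype was 0.040 to 0.14 for the 10 enzymes.

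Markers of dividing cells also had a mean that set the knockout arrays above the wild-type arrays without overlap. That mean over 15 markers, relative to the wild-type mean, was 0.23, 0.41 and 0.33 in the knockout against -0.09, 0.05 and 0.04 in the wild type, a difference of 0.32, next to 0.34 for the mitochondrial folate enzymes. All 15 had a change above 0, against 53.0% of all genes, with a median of 0.30. Plk1, a mitotic kinase (0.57, adjusted p = 0.0203), Bub1b, a spindle checkpoint kinase (0.30, adjusted p = 0.0353), and Mcm4, a subunit of the replicative helicase (0.29, adjusted p = 0.0400), rose, and 12 did not pass. With 1 array left out, Plk1 passed in 5 of 6 fits, Bub1b in 1 and Mcm4 in 0 (highest adjusted p = 0.0851, 0.126 and 0.170). In the fit with replicate numbers as a block, 12 of the 15 markers were higher, against 2.11% of all genes, among them Cdk1 (adjusted p = 0.0139), Top2a (0.0134) and Mki67 (0.0312). These markers were chosen with earlier results of these data known, so their counts are not independent evidence. The share of dividing cells was not measured, and its part in the results for Shmt2, Mthfd2 and Psat1 was not tested. Of 5 measured ensheathing glia markers none passed, and their median change was 0.02. None passed either among 4 markers of neuronal precursors, 6 of sustentacular cells, 4 of horizontal basal cells, 4 of bone and cartilage, 5 of skeletal muscle and 2 of blood, while 2 of 3 enamel genes, Enam and Amelx, fell. Of 6 fits without 1 array, Enam passed in 1 and Amelx in 2 (highest adjusted p = 0.131 and 0.177). With the block, 1 gene each passed among the markers of glia (Fabp7, lower, adjusted p = 0.0412), precursors (Insm1, lower, 0.0466), sustentacular cells (Cyp2g1, lower, 0.0114), muscle (Myh3, higher, 0.0438) and blood (Alas2, higher, 0.00982), and all 3 enamel genes were lower. Among all 19937 genes the main fit called 0.502% higher and 3.24% lower, and the block fit called 421 higher and 889 lower. The wild-type arrays high in enamel genes were replicates 1 and 2, and the part of this tissue in the results was not tested either.

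The promoters of the 3 enzymes that rose and of Shmt1 are shown so that the genes that rose can be read beside a cytosolic counterpart that did not pass. RefSeq windows of build GRCm38.p6 were matched by symbol for 9 of the 10 enzymes, in 10 windows. The 250 bases before each annotated start site are given from 5′ to 3′ on the gene's strand, with capitals marking CCAAT in either orientation.
Shmt2, chr10:127522445-127522694, minus strand: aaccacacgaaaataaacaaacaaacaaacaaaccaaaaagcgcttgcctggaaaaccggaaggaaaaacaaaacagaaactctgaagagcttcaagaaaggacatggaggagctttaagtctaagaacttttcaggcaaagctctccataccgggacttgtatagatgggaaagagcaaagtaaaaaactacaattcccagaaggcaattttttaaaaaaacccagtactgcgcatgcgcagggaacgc
Mthfd2, chr6:83317605-83317854, minus strand: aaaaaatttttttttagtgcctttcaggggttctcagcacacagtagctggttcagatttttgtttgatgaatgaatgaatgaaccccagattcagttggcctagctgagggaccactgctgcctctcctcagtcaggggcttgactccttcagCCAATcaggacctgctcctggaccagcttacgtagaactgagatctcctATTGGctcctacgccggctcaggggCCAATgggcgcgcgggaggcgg
Psat1, chr19:15925060-15925309, minus strand: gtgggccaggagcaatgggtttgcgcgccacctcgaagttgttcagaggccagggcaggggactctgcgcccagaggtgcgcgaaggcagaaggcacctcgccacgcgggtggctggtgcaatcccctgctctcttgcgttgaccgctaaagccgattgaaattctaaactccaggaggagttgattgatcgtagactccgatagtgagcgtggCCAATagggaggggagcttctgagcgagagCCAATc
Shmt1, chr11:60811266-60811515, minus strand: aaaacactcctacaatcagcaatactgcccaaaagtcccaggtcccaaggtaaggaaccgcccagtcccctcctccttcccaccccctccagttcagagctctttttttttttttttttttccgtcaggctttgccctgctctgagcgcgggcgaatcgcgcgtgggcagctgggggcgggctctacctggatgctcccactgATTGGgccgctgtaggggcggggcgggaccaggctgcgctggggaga

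Mthfd2 held 3 CCAAT boxes, beginning 96, 47 and 22 bases before the start site of its window, the middle one on the opposite strand. The annotated Mthfd2 gene extends upstream of that site, to chr6:83326011, and no window at that end was searched. The Psat1 window shown, the upstream one of a pair, held 2 and Shmt1 1, while Shmt2 held none in this window. The letters CCAAT stood in the 250 bases before the start in 6 of the 9 enzymes and in 33.8% of all 32851 windows of that length. Windows of 300 bases, which add 50 bases after the start, were also searched on both strands for TGATGNAA, the composite element bound by C/EBP and ATF factors, for TGACGTCA, the cyclic AMP response element, and for CACGTG, an E-box. These letters were in none of the 10 windows of the enzymes, and in 3.97%, 1.79% and 7.15% of all windows. GGGCGG, the GC box, was in 6 of the 9 enzymes and in 35.7% of all windows. A match is only a match of letters, and elements outside these windows were not searched.

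Of 83 related genes in 7 lists, 73 were measured, of which 1 rose, 1 fell and 71 did not pass, next to 0.502% higher and 3.24% lower among all genes. Nothing particular to these genes is read from those counts. A change above 0 was measured for 49 of the 73 (67.1%), against 53.0% of all genes. The lists were chosen with earlier results of these data known, so this share is not independent evidence. The gene that rose was Chac1, a glutathione-degrading enzyme and ATF4 target, and the gene that fell was Impdh1, an inosine monophosphate dehydrogenase of guanine nucleotide synthesis. Impdh1 was at 9.46, 9.37 and 9.44 in the knockout and at 10.11, 9.90 and 9.93 in the wild type. Its groups were far apart, with a change of -0.55 (SE 0.073, adjusted p = 0.00382), and the call was kept without any 1 array (highest adjusted p = 0.0192). Chac1 was at 9.43, 9.29 and 9.16 against 8.93, 8.90 and 8.97, a change of 0.36 (SE 0.076, adjusted p = 0.0320). Its call was kept only without knockout replicate 3, among the settings that left out 1 array (highest adjusted p = 0.113).

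**Figure D4:**
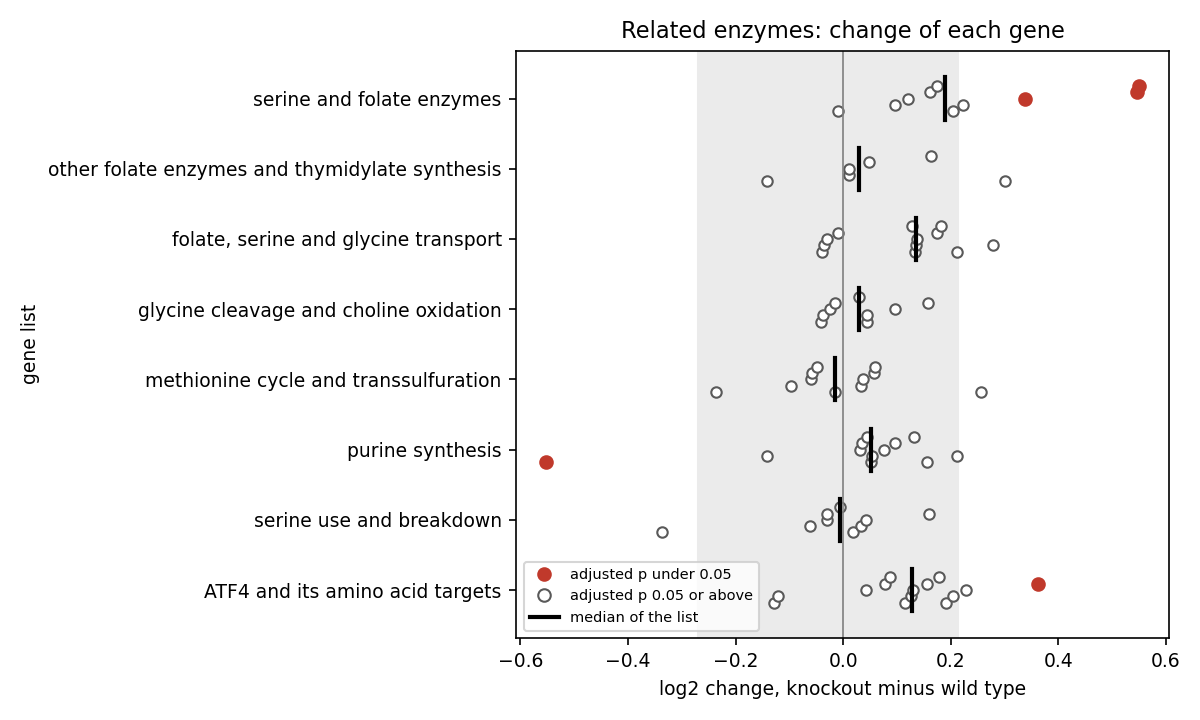
Log2 change, knockout minus wild type, of the 10 serine and folate enzymes and of 73 related genes in 7 lists. Each point is a gene, filled where the adjusted p was under 0.05, black bars are list medians, the vertical spread of points within a list has no meaning, and the grey band holds the changes of all genes between the 5th and 95th percentiles (-0.27 to 0.21). Impdh1 lies far below the other purine genes.

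None of 6 measured enzymes of the remaining folate reactions and thymidylate synthesis passed, and the list's median change was 0.03. Aldh1l1, the cytosolic counterpart of Aldh1l2, was at 0.01 (SE 0.069). Tyms, which makes thymidylate from the folate carbon, was at 9.43, 9.88 and 9.58 in the knockout and at 9.20, 9.50 and 9.28 in the wild type. The groups overlapped and the change of 0.30 (SE 0.12, adjusted p = 0.253) did not pass, but in each replicate number the knockout array was above the wild-type array, and with the number as a block the adjusted p was 0.0238. Fpgs, which adds glutamates that keep folates inside the cell, was at 0.16 (adjusted p = 0.317).

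Of 12 genes for folate, serine and glycine carriers none passed, with a median of 0.13. The neutral amino acid transporter Slc1a4, which carries serine, had the lowest p, at 0.28 (SE 0.093, adjusted p = 0.173), and passed only without knockout replicate 3 (adjusted p = 0.0200). The mitochondrial folate carrier Slc25a32 was at 0.13 (adjusted p = 0.561) and the mitochondrial serine carrier Sfxn1 at 0.14 (adjusted p = 0.421).

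Purine synthesis, which takes formyl groups from folate at the steps of Gart and Atic, had 1 lower gene, Impdh1, of 12 measured, and a median of 0.05. Gart was at 0.04 (SE 0.066) and Atic at 0.03 (SE 0.070), and neither passed. The 9 measured genes of glycine cleavage and choline oxidation had a median of 0.03 and none passed. Gldc, the decarboxylase of the glycine cleavage system, was at -0.02 (SE 0.065), and Aldh7a1, which had the lowest p of the list, at 0.16 (adjusted p = 0.447).

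In the methionine cycle and transsulfuration none of 11 measured genes passed, and the median was -0.01. Ahcyl2 had the lowest p, at -0.24 (SE 0.085, adjusted p = 0.210). Methionine synthase, Mtr, was at 0.03 (SE 0.11). Of 9 measured genes of serine use and breakdown none passed, with a median of -0.01. Ptdss2, a phosphatidylserine synthase, was at 10.13, 10.21 and 9.98 in the knockout and at 10.43, 10.33 and 10.58 in the wild type. These groups did not overlap, and the change of -0.34 (SE 0.086, adjusted p = 0.0729) missed the threshold, but passed after quantile normalization (0.0451).

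ATF4 and its targets in amino acid metabolism were listed because the serine and mitochondrial folate genes are known to belong to that program. Of 14 measured genes 1 rose, Chac1, and 13 did not pass. The change was above 0 for 12 of them, against 53.0% of all genes, with a median of 0.13. In 6 of the 14 every knockout array was above every wild-type array, against 10.8% of all genes. The list was chosen with earlier results of these data known, so these shares are not independent evidence. Atf4 itself was at 9.96, 9.75 and 9.86 in the knockout and at 9.61, 9.72 and 9.71 in the wild type, a change of 0.18 (SE 0.072, adjusted p = 0.264). Asns, the asparagine synthetase, was at 0.04 (SE 0.071). Ddit3 and Trib3, which the same program induces under strong stress, were the only genes of the list below 0, at -0.12 (SE 0.076) and -0.13 (SE 0.087). Pck2, a mitochondrial enzyme that feeds glycolytic intermediates, was at 0.16 (adjusted p = 0.265).

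For each enzyme that rose, the 5 genes with the most similar levels over the 6 arrays were found by Pearson's r, as a measure of likeness without a test. The arrays fall into both genotypes, so a high r holds the genotype difference in it, and r exceeded 0.95 for 101 genes with Shmt2, 154 with Mthfd2 and 173 with Psat1. Nearest to Mthfd2 were Taf5l, the amino acid transporter Slc7a3, Usp19, Nfia and Anapc11 (r from 0.993 to 0.998). Slc7a3 was at 9.99, 9.96 and 9.69 in the knockout and at 9.13, 9.01 and 9.16 in the wild type, with the same array lowest in each genotype as for Mthfd2. Nearest to Shmt2 were Necap1, Eif4ebp1, a repressor of translation initiation, Col12a1, Antxr2 and Rpsa (r from 0.990 to 0.998). Nearest to Psat1 were Garre1, Ube2c, a ubiquitin-conjugating enzyme of mitosis, Slc43a3, Depdc1a and 2410004B18Rik (r from 0.994 to 0.996).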

How the data were processed

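Whole-transcript Affymetrix arrays were made from 6 pools of olfactory epithelium, 3 per genotype. Per the labels' protocols, RNA was extracted with Trizol, purified on Qiagen columns, converted to cDNA with the Ambion WT kit and labelled with biotin. Per the submitters' processing notes, the tools were RMA, affy and limma, with no versions given. The authors' deposited values were taken as log2 levels because they run from 4.50 to 14.7; the log base is not given in the sources used here. RMA equalises the arrays' distributions, so a shift common to nearly all transcripts would be hidden, and dim genes can show compressed changes.

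Of 34760 rows, 21640 had 1 gene symbol in GEO's platform annotation, 1321 several and 11799 none. Rows with 1 symbol, the highest-mean probe set per gene, gave 19937 genes. The genotypes were compared with limma 3.58.1 under R 4.3.3 (lmFit, eBayes without trend, 2-sided, Benjamini-Hochberg over all genes, threshold 0.05). SE is the moderated standard error, and adjusted p values in the text come from this fit unless another is named. Dim genes left out in 1 alternative were those under the 30th percentile of the mean. The fit was run on simulated data with independent noise in each array, as a check of the computation. It bears on no call of a member and does not show how often changes as small as theirs are found. The labels describe the samples as biological replicates, and precision is limited by the number of arrays. No column of other samples was present (0).

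The members, the 7 lists of related genes and the 11 marker lists were chosen with earlier results of these data known. Of 68 markers 62 were measured. Named were Atf5, all members, from each related list the genes past the threshold (up to 6) or the one with the lowest p, up to 3 called markers per list, and the 5 nearest genes of each called member. Aldh1l1, Fpgs, Slc25a32, Sfxn1, Gart, Atic, Gldc, Mtr, Cdk1, Top2a, Mki67, Fabp7, Insm1, Myh3, Alas2, Atf4, Asns, Ddit3, Trib3, Pck2, Omp and Cyp2g1 were named beyond this rule, after their values were seen.

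Deviations from the genotype means of arrays with the same replicate number correlated at 0.295, 0.122 and 0.234, all above 0.1, the minimum set for treating the numbers as pairs. The pairing rests on these correlations, and the labels name nothing that arrays of a number have in common. Results of the block fit are printed where a call of a named gene or the count of a list changed, and for Psat1.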

Additional observations from a re-analysis of the deposited data

How the results depend on the processing

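The count of members that rose was 3 in the main fit, with the replicate block (where 2.11% of all genes were higher), and with median centring, the mean of probe sets or the trended and robust prior, and 2 after quantile normalization or the 30th percentile filter. With 1 array left out it was 2 to 3, while genes called higher in the whole table, 100 in the main fit, numbered 27 to 127 (27 when wild-type replicate 1 was dropped, 31 for knockout replicate 2, 52 for knockout replicate 1 and 53 for wild-type replicate 3). No member was lower in any of the 12 settings. The replicate block changed no call of a member; among related enzymes it added Tyms, so that 2 were higher, and 745 genes called in the whole table became 1310. The filter gave 432 called genes, and leaving out 1 array 410 to 649, the lowest without wild-type replicate 1. Psat1 was at 0.30 (adjusted p = 0.0654) after quantile normalization and 0.34 (0.0549) with the filter, and ranged from 0.29 to 0.42 with 1 array left out. Psph ranged from -0.044 to 0.017 with 1 array left out and changed sign without knockout replicate 2 or wild-type replicate 2 or 3, with no call in any setting. Related enzymes called higher numbered 0 to 2 with 1 array left out, and those called lower 2 after quantile normalization, by Ptdss2. The mitochondrial minus cytosolic difference was 0.12 to 0.27 with 1 array left out and 0.22 after quantile normalization. The cause of these shifts was not tested.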
